A study of Mus musculus with 11 samples.

Results

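The 6 control libraries, numbered 1 to 6, are described here out of 11 libraries in the series. They hold RNA of GFP+ cells sorted at postnatal day 2 (P2) from the V-SVZ (ventricular-subventricular zone), a germinal tissue that lines the lateral ventricles of the brain. All libraries labelled as controls were taken, and no other library enters any value below. The study compared these controls with cells lacking Zeb2, which encodes a zinc finger transcription factor, and that contrast is not part of what follows.

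The controls were mice of the CD1/Swiss strain with the genotype Gsh2-Cre; Zeb2fl/wt and the RCE reporter, which makes a cell and all its descendants express GFP once Cre has acted. Cre was driven by Gsh2, so the sort collects the descendants of Gsh2-expressing progenitors and not a cell type. Each control carried 1 floxed and 1 wild-type allele of Zeb2, so by design Cre would also delete 1 allele in the sorted control cells. By genotype these libraries are therefore not a wild type. Tissue was dissected by hand and dissociated with papain before sorting, and the cells went straight into Trizol LS. Nothing in the labels ties each library to an animal of its own, so the spread between libraries may be technical in part.

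Gsh2, now named Gsx2, is a homeobox gene that gives progenitors of the lateral ganglionic eminence their ventral identity. Before birth its lineage gives rise to projection neurons of the striatum. Around and after birth it supplies the V-SVZ, whose neuroblasts migrate along the rostral migratory stream and become GABAergic interneurons of the olfactory bulb, and it also yields astrocytes and oligodendrocyte precursors. The Dlx homeobox genes act downstream in the same lineage and are required for GABAergic differentiation and for migration.

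The libraries held 6833981 to 12050518 counts on genes, 58368828 in all, and 16836 to 18211 genes had at least 1 count. Levels are given as CPM (counts scaled to a common library total), and 3 counts, the smallest level taken as measurable, correspond to 0.249 to 0.439 CPM in a single library. That limit covers counting error only. Levels are compared between genes only as TPM, which divides each count by exon length before scaling. Gm42418, a non-coding RNA gene on chromosome 17, took 6.38% to 9.79% of the counts, and mitochondrial genes took 1.08% to 1.69%. A mean of at least 1 CPM was reached by 13973 genes and a mean of at least 10 CPM by 9698. The Spearman rank correlation between libraries, across genes, lay between 0.886 for controls 5 and 6 and 0.962 for controls 2 and 5. The least different pair, controls 1 and 4, still differed by more than counting error, with a chi-square of 14.1 for each degree of freedom, so no library was a copy of another.

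All 7 marker genes of the lineage were expressed in every library. Dcx, which encodes a microtubule-binding protein of migrating neuroblasts (ENSMUSG00000031285, chromosome X, positions 143855842 to 143933311), stood at 792, 1105, 893, 835, 935 and 531 CPM in controls 1 to 6. Control 6 was the lowest and control 2 the highest. The mean was 849 ± 190 CPM (SD, n = 6).

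Dlx1 and Dlx2 are neighbours on chromosome 2, at positions 71528113 to 71533981 and 71543408 to 71546754. Dlx1 measured 1037, 753, 709, 983, 633 and 730 CPM in controls 1 to 6, a mean of 808 ± 163 CPM (SD, n = 6). Its exons overlap those of Dlx1as on the opposite strand, and the strand setting of the counting is not known, so part of this count may come from Dlx1as. Dlx2 measured 1060, 712, 586, 1030, 580 and 660 CPM, a mean of 771 ± 218 CPM (SD, n = 6). For both genes controls 1 and 4 lay above the other 4 libraries without overlap, a split read from these values. The share of all genes with the same split is not given here.

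Gad1 and Gad2 encode the enzymes that make GABA from glutamate. Gad1 ranged from 258 CPM in control 6 to 408 CPM in control 4, with a mean of 314 ± 54.1 CPM (SD, n = 6). Gad2 ranged from 212 CPM in control 6 to 419 CPM in control 4, with a mean of 335 ± 76.8 CPM (SD, n = 6). Both genes were therefore lowest in the same library.

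Fabp7 encodes a fatty acid binding protein of radial glia and their immediate progeny. It measured 312, 523, 567, 332, 382 and 355 CPM in controls 1 to 6, and controls 2 and 3 stood above the other 4. Olig2, a basic helix-loop-helix gene of oligodendrocyte precursors and of some progenitors, measured 100, 100, 115, 89.4, 86.8 and 233 CPM. Control 6 lay above the others by a wide margin and the other 5 lay close together. Gsx2 itself, the gene whose promoter names the lineage, stood at 21.99 ± 5.13 CPM (SD, n = 6), from 13.6 CPM in control 5 to 26.9 CPM in control 6.

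On the TPM scale, which allows genes to be ordered, Fabp7 led with a level of 1086 ± 302 TPM (SD, n = 6). Dlx2 followed at 881 ± 221 TPM, and these ranges overlapped. Dlx1 stood at 489 ± 82.8 TPM and Dcx at 221 ± 53.7 TPM, apart from each other and from Dlx2. Gad2 at 187 ± 44.0 TPM, Olig2 at 157 ± 73.3 TPM and Gad1 at 135 ± 22.9 TPM overlapped one another, and Gsx2 was lowest at 43.3 ± 10.2 TPM. In sorted bulk RNA a low level from many cells and a high level from few cells cannot be told apart, and neither can fewer cells of a type and less RNA per cell.

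**Figure D1:**
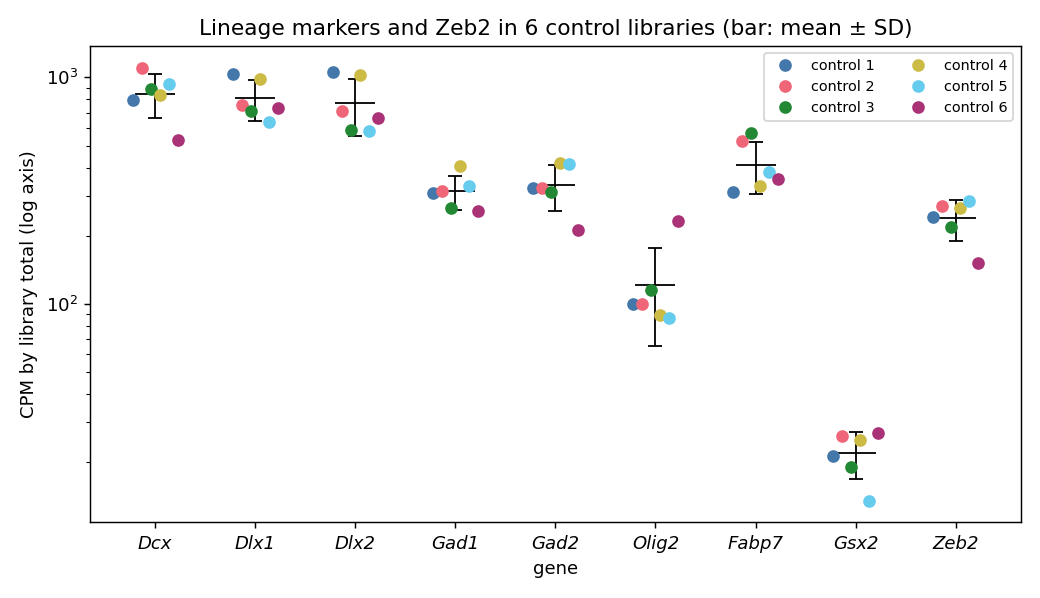
CPM by library total (log axis) of the 7 lineage markers, Gsx2 and Zeb2 in the 6 control libraries. Points are libraries and bars are the mean ± SD (n = 6); the Olig2 point of control 6, at 233 CPM, stands apart from the other 5, and Dcx, Gad2 and Zeb2 are lowest in that library.

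Zeb2 (ENSMUSG00000026872, chromosome 2) measured 241, 272, 219, 265, 285 and 152 CPM in controls 1 to 6, a mean of 239 ± 48.9 CPM (SD, n = 6). Control 6 was the lowest, below the 219 to 285 CPM of the other 5. A count over the whole gene does not separate the floxed from the wild-type allele and so says nothing of the deletion. Zeb2os overlaps it on the opposite strand, with the same limit as for Dlx1.

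Among protein-coding nuclear genes as counted here, the highest levels by TPM belonged to actin and tubulin genes. Actb, which encodes beta-actin, had the highest level of the protein-coding nuclear genes at 12945 ± 826 TPM (SD, n = 6). The tubulin genes Tuba1a, Tubb5 and Tubb3 came next, and Tubb3, the neuron-specific beta-tubulin, stood at 6714 ± 927 TPM. Tmsb4x, whose product binds free actin, reached 2996 ± 604 TPM and Nnat, an imprinted gene of developing neurons, 2923 ± 279 TPM. Marcksl1 at 2521 ± 409 TPM, Nrep at 2408 ± 514 TPM, Atp5b at 2065 ± 115 TPM and Hsp90ab1 at 2040 ± 176 TPM completed the first 10. With the longest transcript in place of all exons as the length, 8 of these 10 genes stayed among the first 10. The 10 genes with the highest mean CPM over the 6 libraries held 12.6 ± 1.404% of the counts of a library (SD, n = 6). They are not the 10 genes listed by TPM, and most of this share belonged to Gm42418, which alone took 6.38% to 9.79%. The first 100 by mean CPM held 22.4 ± 1.499%.

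A near-identical copy blurs 1 of the actin genes. Actg1, which encodes gamma-actin, received only 29 to 64 counts per library, whereas Gm11223, annotated as a processed pseudogene with 450 bases of exon, received 7150 to 10027. Reads of the 2 genes may have been divided between them by the alignment, and neither level is used here. Other abundant genes with near-identical copies may be understated too, which was not tested. Ribosomal protein genes took 0.411% to 0.542% of the counts of a library, and Gapdh had a mean of 11.5 CPM. The order by TPM given above therefore holds only for genes as they were counted.

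Of the 22 young-neuron genes 21 reached a mean of 10 CPM, none had a coefficient of variation (CV, the SD as a share of the mean) of 50% or more, and their median CV was 19.8%. Over all 9693 genes examined at this level the median CV was 20.4%, and 4.05% of the genes had a CV of at least 50%, which are called variable below, so the list lay near the values of all genes. Dpysl3, named after its values were seen, encodes a protein of growing axons and lay between 1637 and 1802 CPM, a CV of 3.28%. Cd24a, a surface protein of neuroblasts, measured 1316 ± 112 CPM (SD, n = 6). Tubb2b, another neuronal tubulin, measured 1202 ± 130 CPM. Of the 21 genes 12 were lowest in control 6, where 25.6% of all 9693 genes had their lowest value.

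The subpallial transcription factors had 15 of 18 genes at a mean of 10 CPM or more, and their median CV was 22.03%. Dlx6os1, a long non-coding RNA from the Dlx5 and Dlx6 locus, measured 1222, 1177, 852, 1231, 1118 and 858 CPM in controls 1 to 6. Dlx5, a homeobox gene of the same family, measured 205 ± 40.5 CPM (SD, n = 6) and was highest in controls 4 and 1. Only Zfhx3, a large homeobox gene, was variable, with values from 11.8 CPM in control 4 to 50.4 CPM in control 2 and a CV of 58.2%. With trends of GC content and transcript length removed from each library, its CV was 49.4%. Of the 15 genes 7 were highest in control 1, against 16.8% of all genes, and 7 were lowest in control 6, against 25.6%.

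Of 6 genes of GABA synthesis and transport 5 reached a mean of 10 CPM, none was variable and their median CV was 17.2%, near that of all genes. Single CVs ranged from 8.61% to 39.9%. Abat, which breaks GABA down, lay between 241 and 310 CPM, a CV of 8.61%.

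Of 15 genes of olfactory bulb interneurons 11 reached 10 CPM, with a median CV of 23.2%. Synpr, a synaptic vesicle protein gene, measured 309, 230, 281, 299, 283 and 283 CPM in controls 1 to 6. Prokr2, a receptor through which prokineticin guides neuroblasts to the bulb, measured 235 ± 51.4 CPM (SD, n = 6). Sp8, a zinc finger gene of dorsal lateral ganglionic eminence derivatives, measured 294, 185, 178, 305, 156 and 146 CPM, and, as for Dlx1 and Dlx2, controls 1 and 4 stood above the rest. Calb2, which encodes calretinin of superficial interneurons, was the variable member with 42.3 CPM in control 1 and 8.96 to 23.8 CPM in the other 5. Without control 1 its CV fell from 62.8% to 46.3%. Th, the dopamine-synthesis enzyme of periglomerular neurons and named after its values were seen, stood at 11.4 ± 5.47 CPM (SD, n = 6).

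Among receptors and guidance molecules of migrating neurons 17 of 18 genes reached 10 CPM, with a median CV of 29.7%. Epha4, an ephrin receptor, measured 306 ± 112 CPM (SD, n = 6), from 175 CPM in control 1 to 456 CPM in control 2. Robo2, a Slit receptor, measured 286 ± 85.0 CPM. Itgb1, the beta1 integrin, was far more even, between 143 and 164 CPM. Nrp2, a semaphorin receptor, was the variable member, at 33.7 CPM in control 6 and 5.56 to 17.4 CPM in the other 5, and its CV fell from 63.8% to 36.1% without control 6.

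Markers of neighbouring neuronal lineages were examined next. Of 13 genes of the pallium, the dorsal region outside the Gsh2 lineage, 12 were below 10 CPM and Neurog1 had no count in any library. Their summed level was 75.5, 51.0, 35.1, 32.8, 28.5 and 14.1 CPM in controls 1 to 6. Neurod6, a gene of cortical projection neurons, made up the largest part, with 25.6 CPM in control 1, 1.36 CPM in control 6 and 8.02 to 10.6 CPM in the other 4. Its CV was 75.2%, and 48.2% without control 1.

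Of 13 genes of the medial ganglionic eminence and cortical interneurons 10 reached 10 CPM. Npy, a neuropeptide gene, had a level of 1249 ± 377 TPM (SD, n = 6), and its counts were 271, 235, 254, 174, 256 and 102 CPM in controls 1 to 6. Sst, the somatostatin gene, had a level of 429 ± 134 TPM and was also lowest in control 6, at 45.2 CPM against 71.8 to 117 CPM elsewhere. Lhx6, the LIM homeobox gene of that lineage, measured 95.03 ± 21.03 CPM. Nkx2-1, which specifies the medial eminence, stood at 13.03 ± 6.56 CPM with a CV of 50.3%, so close to the threshold that it was no longer variable with TMM factors (49.0%), with DESeq2 size factors (48.9%), without Gm42418 in the totals (49.96%) or without control 1 (43.2%), 2 (40.9%) or 4 (44.5%).

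Of 21 genes of striatal projection neurons 16 reached 10 CPM, 7 of the 16 were variable (43.8%, against 4.05% of all genes), and the median CV was 47.6%. Of the 16 genes 13 were highest in control 5, where 18.1% of all genes had their highest value, and 14 were lowest in control 1, against 18.6% of all genes. The summed level of the list was 922, 2394, 1973, 1510, 2800 and 1434 CPM in controls 1 to 6.

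Penk, which encodes the enkephalin precursor of indirect-pathway neurons, measured 17.3, 80.4, 89.2, 22.8, 116 and 107 CPM. Controls 1 and 4 lay far below the other 4. Ppp1r1b, which encodes the dopamine-regulated phosphatase inhibitor DARPP-32, measured 14.6, 42.3, 42.6, 33.9, 82.3 and 22.4 CPM, with control 5 the highest. Bcl11b, a zinc finger gene needed for striatal neuron maturation, measured 192, 398, 336, 192, 338 and 198 CPM, and controls 2, 3 and 5 stood above the other 3. Rxrg, a retinoid receptor gene, ranged from 96.1 CPM in control 1 to 367 CPM in control 5.

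The other 5 variable genes, named after their values were seen, were Foxp2, Isl1, Ebf1, Pdyn and Rgs9. Foxp2, a forkhead gene, ranged from 74.0 CPM in control 1 to 264 CPM in control 5, and Ebf1, a gene of direct-pathway neurons, from 9.54 CPM in control 6 to 42.6 CPM in control 5. Without control 1 the number of variable members was 3, and without control 6 it was 4. Penk fell to a CV of 43.9% without control 1 and 47.3% without control 4, and Ppp1r1b to 39.7% without control 5. With trends of GC content and transcript length removed from each library 5 genes were variable.

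**Figure D2:**
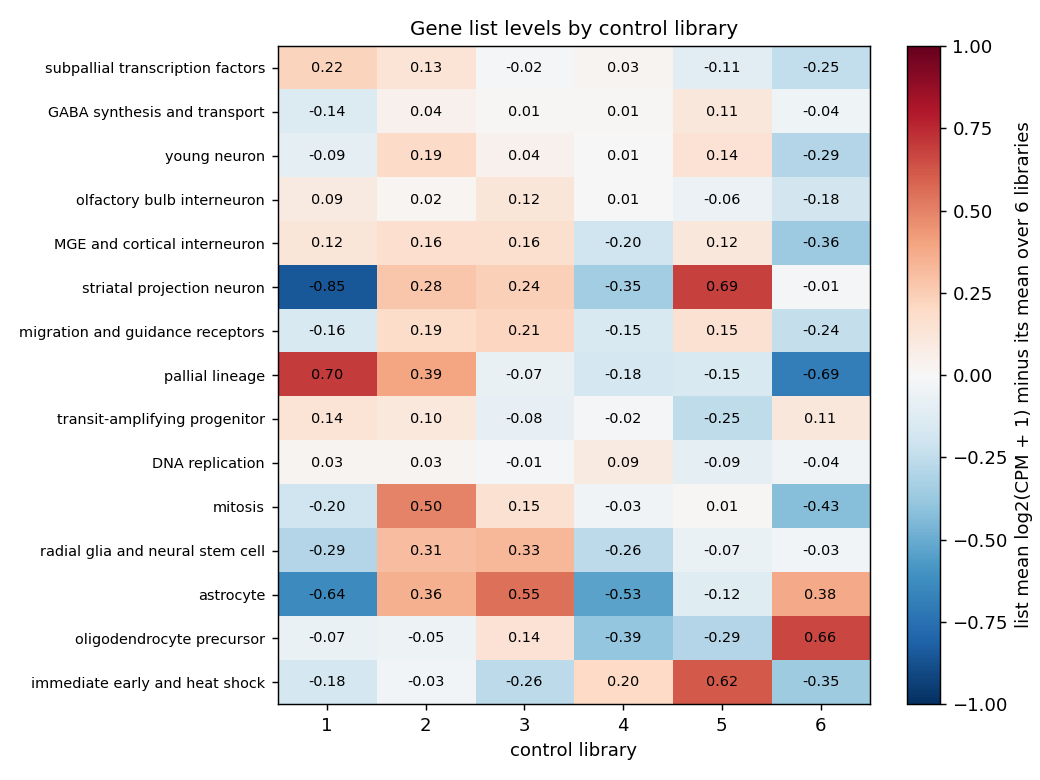
Mean log2(CPM + 1) of 15 gene lists in each control library, as the difference from the mean of that list over the 6 libraries. The largest differences are those of the striatal list in control 1 (-0.85) and control 5 (0.69), the pallial list in control 1 (0.70) and control 6 (-0.69) and the oligodendrocyte precursor list in control 6 (0.66).

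Radial glia and neural stem cell genes were present in all libraries. Of 18 genes 15 reached 10 CPM, none was variable, and the median CV was 26.9%. Slc1a3, the glial glutamate transporter, measured 214, 561, 566, 272, 377 and 392 CPM in controls 1 to 6, so controls 2 and 3 were highest, as for Fabp7. Ednrb, an endothelin receptor gene, measured 246 ± 62.3 CPM (SD, n = 6) and was highest in control 3. Vim, an intermediate filament gene, measured 237 ± 45.7 CPM.

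Genes of transit-amplifying progenitors, the dividing intermediates between stem cells and neuroblasts, all reached 10 CPM (12 of 12). Hes6, a gene of neuronal commitment, measured 229 ± 30.8 CPM (SD, n = 6). Mfng, a modifier of Notch, measured 208 CPM in control 1 and 104 to 176 CPM in the others. Gadd45g, a growth-arrest gene of cells leaving the cycle, measured 101 ± 17.3 CPM. Egfr, the receptor that marks activated stem cells and transit-amplifying cells, was variable, with 37.5, 95.7, 73.6, 31.7, 53.6 and 23.4 CPM. Its CV of 52.6% fell to 45.4% without control 2 and 45.2% without control 6. With trends of GC content and transcript length removed it was 34.6%.

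Both lists of the cell cycle were expressed in all libraries. Of 20 DNA replication genes 19 reached 10 CPM, none was variable, and the median CV was 13.9%. Mcm6, a subunit of the replicative helicase, lay between 285 and 380 CPM, and Rrm2, a ribonucleotide reductase subunit, between 165 and 253 CPM.

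All 25 mitosis genes reached 10 CPM, with a median CV of 20.8%, and 5 of them (20%, against 4.05% of all genes) were variable. Of the 25 genes 16 were highest in control 2, against 14.6% of all genes, and 10 were lowest in control 6, against 25.6% of all genes. Mki67, the proliferation antigen, measured 15.4, 101, 60.5, 17.9, 57.4 and 7.99 CPM in controls 1 to 6. Cenpe, a centromere motor protein gene, measured 5.56, 49.0, 23.1, 8.92, 25.2 and 2.18 CPM. In both genes controls 2, 3 and 5 lay above controls 1, 4 and 6 without overlap. This split was read from the values, and the share of all genes with the same split is not given here.

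Tpx2, a spindle assembly gene, did not follow that order, with 103, 124, 90.2, 140, 117 and 96.2 CPM. Plk1, a mitotic kinase gene named after its values were seen, lay between 24.4 and 33.9 CPM in all 6 libraries, a CV of 14.0%. The variable members, Mki67 and Cenpe with Cenpf, Kif11 and Kif23 (the last 3 named after their values were seen), had longest transcripts of 3398 to 11130 bases, with a median of 7910. The 20 members that were not variable had 1531 to 5221 bases, with a median of 3150, and CVs of 9.98% to 41.4%. The number of variable members was 3 without control 2, without control 6 or with trends of GC content and transcript length removed from each library.

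Length and base composition moved with the spread beyond the mitosis list. All genes were divided into 5 classes of equal size by longest transcript, and again by GC content. Of the longest class 8.19% were variable, against 0.985% of the shortest. Of the class with the lowest GC content 8.66% were variable, against 2.38% to 3.37% in the others. The median log2 deviation of the longest class from the gene means was -0.13, 0.21, 0.13, -0.17, 0.17 and -0.16 in controls 1 to 6. For the class of lowest GC content it was -0.15, 0.19, 0.10, -0.02, 0.26 and -0.32. Controls 2, 3 and 5 were thus high and controls 1 and 6 low in both classes. In the class of highest GC content control 6 was the highest at 0.24 and control 5 the lowest at -0.13.

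**Figure D3:**
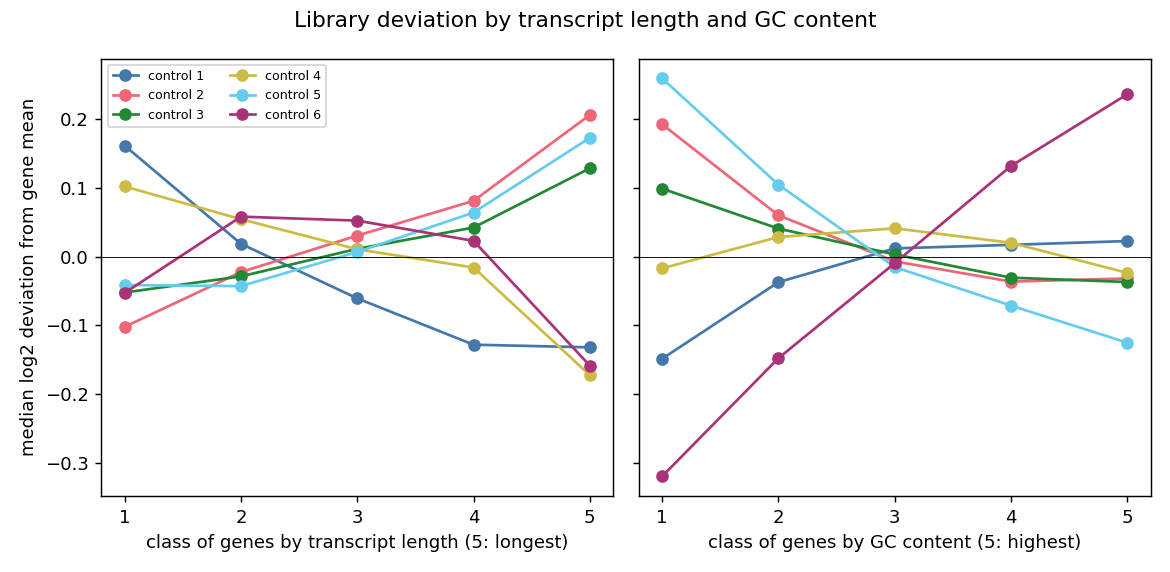
Median log2 deviation of a library from the mean of each gene, over 5 equal classes of genes by longest transcript (left) and by GC content (right); lines are the 6 control libraries. In the class of lowest GC content control 5 lies at 0.26 and control 6 at -0.32.

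The oligodendrocyte precursor genes set control 6 apart. Of 14 measured oligodendrocyte precursor genes 11 reached 10 CPM, with a median CV of 41.1%, and 3 of the 11 were variable (27.3%, against 4.05% of all genes). Of the 11 genes 10 were highest in control 6, against 24.9% of all genes. The summed level of the list was 3045 CPM in control 6 and 1355 to 1982 CPM in the other 5. Control 6 also had the fewest genes detected, 16836 against 17707 to 18211, and the part of this in the result was not tested.

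Cspg4, which encodes the NG2 proteoglycan, measured 65.9, 47.5, 95.4, 39.3, 27.9 and 187 CPM in controls 1 to 6. Gpr17, a receptor of committed precursors, measured 89.7, 146, 236, 107, 122 and 395 CPM, although its exons overlap those of Lims2 on the opposite strand. Olig1, the neighbour of Olig2 on chromosome 16, measured 605, 579, 612, 464, 378 and 1005 CPM. In all 3 genes control 6 exceeded every other library. Pdgfra, the growth factor receptor of these precursors and named after its values were seen, stood at 508 CPM in control 6 and 190 to 251 CPM elsewhere. Sox8, which overlaps a gene on the opposite strand, differed less, with 190 CPM in control 6 and 109 to 162 CPM in the other 5.

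Without control 6 none of the 11 genes was variable. Cspg4 then had a CV of 47.8% and Gpr17 of 41.0%, and Sox10, the third variable gene and named after its values were seen, was at 39.9 CPM in control 6 and 9.71 to 20.5 CPM in the others. Without control 3 the number was 5, and with the GC and length trends removed it was 3. Olig2 reached a CV of 51.2% without control 3. Only 2 of 10 myelin genes reached 10 CPM, Cnp at 131 ± 37.8 CPM (SD, n = 6) and Mbp at 51.0 ± 8.14 CPM, and Aspa had no count. Cnp, an enzyme of myelinating cells whose exons overlap those of Dnajc7 on the opposite strand, was highest in control 6 at 203 CPM.

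Astrocyte genes followed another order. Of 15 genes 12 reached 10 CPM, with a median CV of 38.1%, 3 were variable (25%, against 4.05% of all genes) and Gjb6 had no count. Of the 12 genes 8 were lowest in control 1, against 18.6% of all genes, and 4 in control 4, against 13.4% of all genes. Controls 2, 3 and 6 each held the highest value of 4 of the genes, against 14.6%, 11.3% and 24.9% of all genes. Apoe, the lipid carrier of glia, measured 394, 614, 684, 379, 447 and 816 CPM in controls 1 to 6. Clu, a secreted chaperone, measured 69.4, 187, 262, 137, 141 and 231 CPM. Aldoc, a glycolytic enzyme of astrocytes, and Mlc1, a membrane protein of their end-feet, were lowest in control 1 too, at 136 and 110 CPM.

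Gfap, the intermediate filament of astrocytes and stem cells, measured 8.34 CPM in control 1 and 47.2 CPM in control 6, with a CV of 60.8%. Aqp4, the water channel, measured 36.1 CPM in control 3 and 8.93 to 20.6 CPM in the other 5, and its CV fell from 58.6% to 36.1% without control 3. The third variable gene, Slc1a2, a glutamate transporter named after its values were seen, ranged from 12.2 CPM in control 4 to 76.1 CPM in control 2. With the GC and length trends removed 1 astrocyte gene was variable, and Aqp4 was at 49.4%.

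Immediate early genes are those that neurons and other cells switch on within minutes of stimulation. Of 18 immediate early and heat shock genes 10 reached 10 CPM, with a median CV of 44.4%, and 3 were variable (30.0%, against 4.05% of all genes). Of the 10 genes 8 were highest in control 5, against 18.1% of all genes. Hspb1, a small heat shock protein gene, had no count. Several genes of this list are known targets of CREB, a factor that binds TGACG sequences. The 250 bases before the start of 3 of them are shown so that the motif can be seen in place, from RefSeq on GRCm38.p6, 5′ to 3′ in the direction of the gene. Npas4 lies at chr19:4989972-4990221 (minus strand), Fos at chr12:85473640-85473889 (plus strand) and Dusp1 at chr17:26508473-26508722 (minus strand), and capitals mark TGACG on either strand.
Npas4: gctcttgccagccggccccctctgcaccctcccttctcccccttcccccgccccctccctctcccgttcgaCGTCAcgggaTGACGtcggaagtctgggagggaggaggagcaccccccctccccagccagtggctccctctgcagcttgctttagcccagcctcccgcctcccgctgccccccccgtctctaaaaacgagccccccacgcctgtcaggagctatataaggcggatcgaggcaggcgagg
Fos: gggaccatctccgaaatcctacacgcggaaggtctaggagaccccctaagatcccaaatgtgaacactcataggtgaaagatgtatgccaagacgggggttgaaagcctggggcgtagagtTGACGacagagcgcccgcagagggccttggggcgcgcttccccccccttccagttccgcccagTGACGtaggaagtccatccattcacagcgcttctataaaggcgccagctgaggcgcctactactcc
Dusp1: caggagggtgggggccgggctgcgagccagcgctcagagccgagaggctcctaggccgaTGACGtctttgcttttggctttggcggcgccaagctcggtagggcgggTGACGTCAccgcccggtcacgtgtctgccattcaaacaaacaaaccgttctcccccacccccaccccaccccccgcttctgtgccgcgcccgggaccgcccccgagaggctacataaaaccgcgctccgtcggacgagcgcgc

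The table of promoters held 7 of the 10 expressed genes of the list. TGACG, searched on both strands, occurred in 6 of the 7 (Dnajb1, Junb, Fos, Nr4a1, Dusp1 and Npas4, but not Jun), and in 17.9% of 27025 promoters of this length. The full palindrome TGACGTCA, which holds the shorter motif on both strands, occurred in Dusp1 alone among the 7 and in 1.62% of all promoters. These are matches of letters and not measured binding.

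Npas4, a factor induced by neuronal activity, measured 20.9, 43.3, 17.8, 74.8, 148 and 32.1 CPM in controls 1 to 6. Arc, which acts at synapses, measured 12.4, 28.3, 20.1, 54.6, 97.9 and 17.7 CPM. Fos, a subunit of the AP-1 factor, measured 63.5, 73.9, 54.4, 117, 180 and 50.9 CPM. In all 3 genes control 5 was the highest and control 4 the next, and the other 4 libraries lay below both. Dusp1, a phosphatase of activated kinases, followed in part, with 211 CPM in control 5, 198 CPM in control 4 and 113 to 176 CPM elsewhere, but its exons overlap those of Ergic1.

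Jun, the AP-1 partner of Fos, varied less, from 190 CPM in control 3 to 304 CPM in control 5. Dnajb1, a heat shock co-chaperone, did not share the order: it lay between 105 CPM in control 5 and 143 CPM in control 6. The Fos CV of 55.7% fell to 37.1% without control 5, and the number of variable members was 5 without control 2, 3 or 4 and with the GC and length trends removed, and 2 without control 5.

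**Figure D4:**
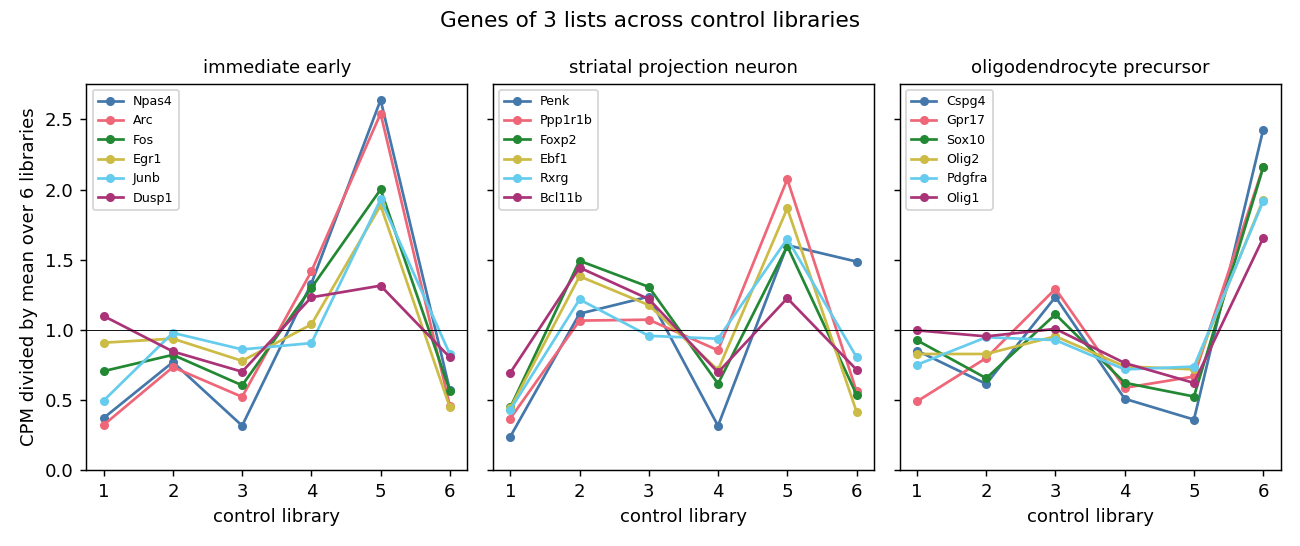
CPM of each gene divided by its mean over the 6 libraries, for genes of the immediate early, striatal projection neuron and oligodendrocyte precursor lists. Lines join the values of a gene and libraries have no order; Npas4, Arc and Fos peak in control 5, Cspg4, Gpr17 and Olig2 in control 6.

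Markers of ependymal, microglial, endothelial and erythroid cells were mostly low. None of the 10 ependymal genes reached 10 CPM, and Foxj1, the regulator of motile cilia, stood at 4.95 ± 2.53 CPM (SD, n = 6). Of the 14 microglial genes 12 were below 1 CPM, and Aif1, which encodes an actin-binding protein of these cells, lay between 0.146 and 1.09 CPM. The 12 endothelial genes summed to 8.09 to 19.5 CPM and Tek was at 0, with Cldn5, a tight junction gene, at 0.104 to 3.15 CPM. The 6 erythroid genes summed to 0.636 to 5.41 CPM, with Hba-a2 at 0. How reads shared with a near-identical copy such as Hba-a1 were counted is not known, so this 0 does not show absence.

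Of the 11 mural and fibroblast genes Dcn and Lum were at 0, and Pdgfrb, a receptor of pericytes, was the only gene above 10 CPM, at 9.66 to 38.3 CPM. Its CV of 53.0% fell to 45.2% without control 1 and to 45.5% with the GC and length trends removed. Of the 10 choroid plexus genes 7 were below 1 CPM and Kcne2 was at 0, and Ttr, the defining transcript of that tissue and named after its values were seen, had 1 to 8 counts per library. Enpp2 at 85.4 ± 9.21 CPM was the only member above 10 CPM. Oligodendrocyte precursors express it as well, but which cells it came from here was not tested. It was highest in control 3, at 103 CPM against 76.6 to 86.1 CPM in the other libraries. Of the 11 oligodendrocyte precursor genes at 10 CPM or more, 10 were highest in control 6, against 24.9% of all genes. No source of Enpp2 is read from these values. For a gene at 0 in all libraries, 3 counts in the pooled total would be 0.0514 CPM.

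Over all genes, 393 of 9693 (4.05%) were variable. The threshold of 50% fell between Dzank1, just inside at 50.05%, and Nexmif, just outside at 49.8%. Of the 393 genes 153 were highest in control 5, 100 in control 2 and 79 in control 6, while 163 were lowest in control 6 and 110 in control 1. Their median longest transcript was 4931 bases, against 3559 over all genes examined, and their median GC content 44.9% against 49.4%. They were also lower in level, with a median of 18.6 CPM against 47.1 CPM. Without control 6 the number was 261, of which 216 were among the 393. With GC and length trends removed it was 235, of which 210 were among the 393.

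**Figure D5:**
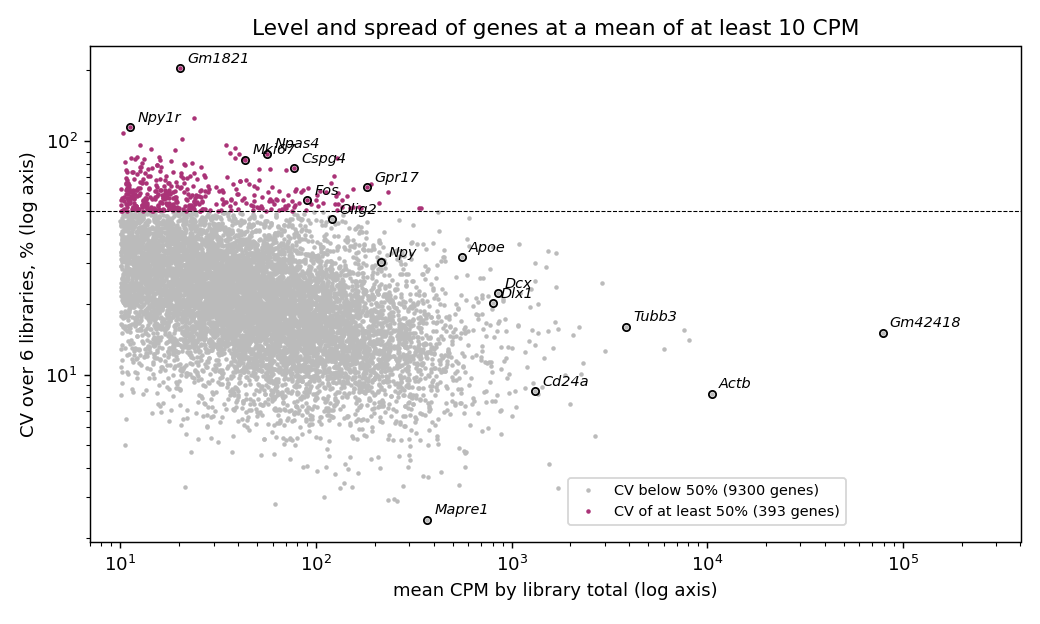
Mean CPM (log axis) against the CV over 6 libraries (log axis) for 9693 genes at a mean of at least 10 CPM. The dashed line is the threshold of 50%, the coloured points are the 393 genes at or above it, and Gm1821 lies highest while Mapre1 is lowest among the genes marked.

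The genes with the highest CV were of several kinds. Gm1821, a processed pseudogene related to ubiquitin genes, measured 104 CPM in control 3 and 2.57 to 5.19 CPM in the other 5, and its CV fell from 204% to 31.3% without control 3. Rps2-ps13, a ribosomal protein pseudogene with a near-identical parent, measured 30.5, 38.2 and 74.3 CPM in controls 3, 4 and 6 and at most 0.146 CPM in the others. Reads may have been divided between such copies and their parent genes by the alignment, so both values are uncertain.

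Npy1r, a receptor of neuropeptide Y, measured 36.8 CPM in control 6 and 1.17 to 10.3 CPM in the others. Lrrc4c, which encodes a netrin-G ligand of synapses, measured 62.3 CPM in control 5 and 4.36 to 18.8 CPM in the others, and its CV fell from 102% to 47.2% without control 5. Lingo2, a neuronal leucine-rich repeat gene, was also highest in control 5, at 37.6 CPM, and lowest in control 1, at 1.61 CPM. Knl1, a kinetochore scaffold gene, was highest in controls 2, 3 and 5, as Mki67 and Cenpe were, with 6.15, 38.1, 21.04, 6.54, 21.1 and 2.09 CPM in controls 1 to 6.

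Arhgap5, a regulator of small GTPases, and Ankrd12, both with transcripts of 9323 bases or more, had CVs of 88.5% and 87.6% and were high in controls 2, 3 and 5. Myl9, a myosin light chain of smooth muscle, measured 32.0 CPM in control 3, 23.8 CPM in control 6 and 2.59 to 6.06 CPM elsewhere. Serinc3, Gm10801, Caln1 and Iqcg, whose exons overlap those of Lrch3 on the opposite strand, completed the first 15 together with Npas4 and Cenpe, with CVs of 85.7% to 108%.

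At the other end, among genes at a mean of at least 100 CPM, Mapre1 was the most even. It encodes a protein that binds growing microtubule ends and lay between 355 and 380 CPM, a CV of 2.40%. Slc39a6, a zinc transporter gene, followed with a CV of 2.89%, Immt, an organiser of mitochondrial cristae, with 2.90%, Brwd1 with 2.95% and Zfyve27 with 2.99%. At a mean of 10 CPM in the shallowest library counting alone would give a CV of 12.1%.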

How the data were processed

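The deposited table holds raw read counts per Ensembl gene for 39179 genes; the 6 control columns were used. Per the submitters' processing notes, TopHat2 2.0.13 and featureCounts 1.4.6 were used with mm10 or GRCm38. Which annotation release and strand setting were used, and how multi-mapping reads were treated, is not given in the sources used here, so overlapping genes and near-identical copies can share counts. Groups came from the titles and the genotype.

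From the deposited counts, CPM by library total, mean, SD and CV were computed with Python 3.11.15, pandas 2.3.3 and numpy 2.4.6. TPM used the union exon length of GENCODE M21, which matched 37693 genes. With 1 group no test was made. Genes at a mean of at least 10 CPM were called variable at a CV of at least 50%. Y-linked genes, Xist and Tsix (5 genes at 10 CPM) were left out of that ranking. The members and the 22 gene lists (322 entries, 321 in the table) were chosen with earlier results of these data known.

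Named genes are the 7 lineage markers, Gsx2 and Zeb2, the 10 highest by CPM, the 10 nuclear protein-coding genes highest by TPM, the 4 members of each list highest by TPM and those at 0, the 2 variable members of each list with the highest CV, the 15 genes with the highest CV, and the 5 with the lowest CV at 100 CPM or more. Some of them are not reported here. On simulated data for these 9693 genes, in which 200 had a CV of 100% and the others 20%, 94.5% of the 200 and 0 others were called. The real CVs were less separated, with an upper quartile of 29.1%, and the simulation had no shifts shared between genes. It therefore cannot show how many of the 393 calls are in error.

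Alternatives were TMM factors (edgeR 4.0.16 in R 4.3.3), DESeq2 1.42.0 size factors, totals without Gm42418, other minimum levels, a CV of 40%, counting variance removed, edgeR's tagwise biological variation, the longest transcript as length, and leaving out each library. Removal of GC content and length trends was chosen after seeing the data.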

Additional observations from a re-analysis of the deposited data

Results flagged for a closer look

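Of 151 values examined over the 6 control libraries, 11 had a library far from the other 5 (a gap to the nearest that exceeded Dixon's critical value). Chance flags about 1 in 20 groups, but the values examined include genes chosen for their high CV in these same libraries (Gm1821, Npy1r and Lrrc4c among those below), so the number is not set against that rate. In 6 of the 11 the distant library was control 6: Olig2 at 233 CPM (86.8 to 115 in the other 5), Olig1 at 1005 CPM (378 to 612), Cnp at 203 CPM (97.6 to 136), Npy1r at 36.8 CPM (1.17 to 10.3), Hbb-bs at 0 CPM (1.16 to 1.80), and 16836 genes detected (17707 to 18211). In 3 it was control 3: Gm1821 at 104 CPM (2.57 to 5.19), Enpp2 at 103 CPM (76.6 to 86.1) and Mycn, low at 141 CPM (184 to 207). Synpr was low in control 2 at 230 CPM (281 to 309), and Lrrc4c was high in control 5 at 62.3 CPM (4.36 to 18.8). The cause of these differences was not tested.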

How the results depend on the processing

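No paired analysis was possible because the results describe a single group and come from no test. The number of variable genes was 393. It was 361 with TMM factors, 371 with DESeq2 size factors, 415 without Gm42418 in the totals and 375 with counting variance removed. Leaving out a library gave 261 (without control 6) to 518 (without control 3). It moved to 2302 at a minimum mean of 1 CPM, 10727 with no minimum, 70 at a minimum of 50 CPM, 917 at a CV of at least 40% and 116 with edgeR's tagwise biological variation. Removing GC content and length trends, chosen after seeing the data, gave 235; fewer genes and other cut-offs follow from how these settings are built, and for the trends the cause was not tested. The number of genes at a mean of at least 1 or 10 CPM moved by less than 1.5 times under every setting tried. With the longest transcript as length, the TPM of 36 named genes moved by more than 1 SD and that of 88 did not.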
